A study of Mus musculus with 12 samples.

Results

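The 9 genes described here encode sulfotransferases and enzymes that work beside them in conjugation: the cytosolic sulfotransferases Sult1a1, Sult1b1, Sult1c2, Sult1d1 and Sult2b1, the cofactor enzymes Papss2 and Ugdh, the arylamine acetyltransferase Nat2 and the thiopurine methyltransferase Tpmt. They were taken by symbol from 30676 genes listed in at least 1 of 2 deposited count tables, and all 9 stand among the 26121 genes listed in both. The 12 RNA-seq libraries came from duodenum of C57BL/6N mice, with 3 libraries in each of 4 groups. Mice of the HFD PCN group ate a high-fat diet for 18 weeks from 6 weeks of age and were then injected intraperitoneally with 50 mg/kg PCN (pregnenolone 16α-carbonitrile), which binds and activates the pregnane X receptor (PXR) of the mouse, once daily on 4 days. Mice of the HFD Vehicle group had the same diet and 4 daily injections of 30% DMSO in corn oil. HFD mice had the high-fat diet, and Chow mice regular chow, for the same 18 weeks from 6 weeks of age. For both groups the treatment field of the labels holds a dash. The labels name no altered allele and give neither the sex of the animals nor whether a library came from 1 animal. The p-values may therefore measure only technical spread between libraries.

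Sulfotransferases move a sulfonate group from the cofactor PAPS (3'-phosphoadenosine 5'-phosphosulfate) onto phenols, catecholamines, bile acids and steroids, which makes them more soluble in water. PAPS is made from ATP and inorganic sulfate by the 2-step PAPS synthases Papss1 and Papss2. Ugdh oxidises UDP-glucose to UDP-glucuronate, the donor for glucuronidation and for matrix polysaccharides. Acetyltransferases and methyltransferases use acetyl-CoA and S-adenosylmethionine in the same way, and the absorptive enterocytes of the upper small intestine are a main site of such conjugation. PXR is a nuclear receptor that raises transcription of many drug-metabolising genes once a ligand is bound.

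Total counts were 4676718 to 20684369 per library. Vil1, a structural gene of the brush border, had 1172 to 2390 CPM (counts scaled to a total of 1000000 per library, with TMM factors over all 12 libraries on the genes of both tables), and the hepatocyte product Alb at 0.107 to 1.16 CPM, although the extraction protocol speaks of liver. Of 7 hepatocyte markers measured, Cps1 was at 691 to 1147 CPM, and the highest value of any other was 3.18 CPM for Ttr. Of 3 ileal markers, Fabp6 was at 0 to 0.397 CPM, Slc10a2 at 0.486 to 2.94 CPM and Mep1a at 18.3 to 87.1 CPM. A set of 15 markers of mature enterocytes summed to 52357 to 57427 CPM in HFD PCN, 17313 to 53586 CPM in HFD Vehicle, 27809 to 57242 CPM in HFD and 41078 to 52161 CPM in Chow. HFD Vehicle 23 had the lowest of these sums and HFD 4 the next, and both stand apart in several results below. HFD Vehicle 23 and 50 also had the highest heat shock sums, at 5912 and 4929 CPM over 4 genes, where the other 10 libraries had 695 to 2273 CPM. The mitochondrial rRNA share was 33.6% in HFD Vehicle 23 and 8.69% to 19.2% elsewhere. In bulk tissue, fewer cells of a type and less RNA per cell cannot be told apart.

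Per kilobase of exon, Papss2 was the most abundant of the 9 genes in every group. It averaged 1103 ± 300 CPM per kilobase in HFD PCN, 682 ± 359 in HFD Vehicle, 955 ± 297 in HFD and 815 ± 263 in Chow (SD, n = 3 each). On the same scale Sult1d1 and Sult1b1 followed, at 174 ± 16.7 and 141 ± 21.3 in HFD PCN and 127 ± 2.52 and 114 ± 15.8 in Chow. Ugdh stood at 69.7 ± 6.61 CPM per kilobase in HFD PCN and 52.7 ± 8.94 in Chow, and Sult2b1 at 20.1 ± 4.06 and 21.4 ± 2.32. Nat2 had 16.8 ± 3.04 CPM per kilobase in HFD PCN and 12.7 ± 2.24 in Chow. Sult1a1, Sult1c2 and Tpmt lay at 1.10 to 5.15 CPM per kilobase as group means, with 12 to 159 reads per library, so counting error weighs most on these 3 genes. Exon lengths are those of GENCODE M21, where Papss2 begins further upstream than in the deposited tables.

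By edgeR's quasi-likelihood test over all genes, none of the 9 genes passed an adjusted p of 0.05 in HFD PCN against HFD Vehicle, in HFD Vehicle against HFD or in HFD against Chow. The shares of all genes tested that passed were 0.0621%, 0% and 0.0655%, so a count of 0 among 9 genes is near the background in each. At an unadjusted p under 0.05 there were 1, 0 and 2 of the 9, where the shares of all genes were 17.9%, 5.86% and 10.3%. DESeq2 also called 0 of the 9 in each comparison, with 1.18%, 0.124% and 0.477% of all genes called in the same order, and so did limma-voom, with 0.0435%, 0% and 0.0458%. All 9 genes passed the filter on low counts in each comparison. What follows is therefore an account of levels and of their spread, and the intervals show how large a difference these libraries leave possible.

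**Figure D1:**
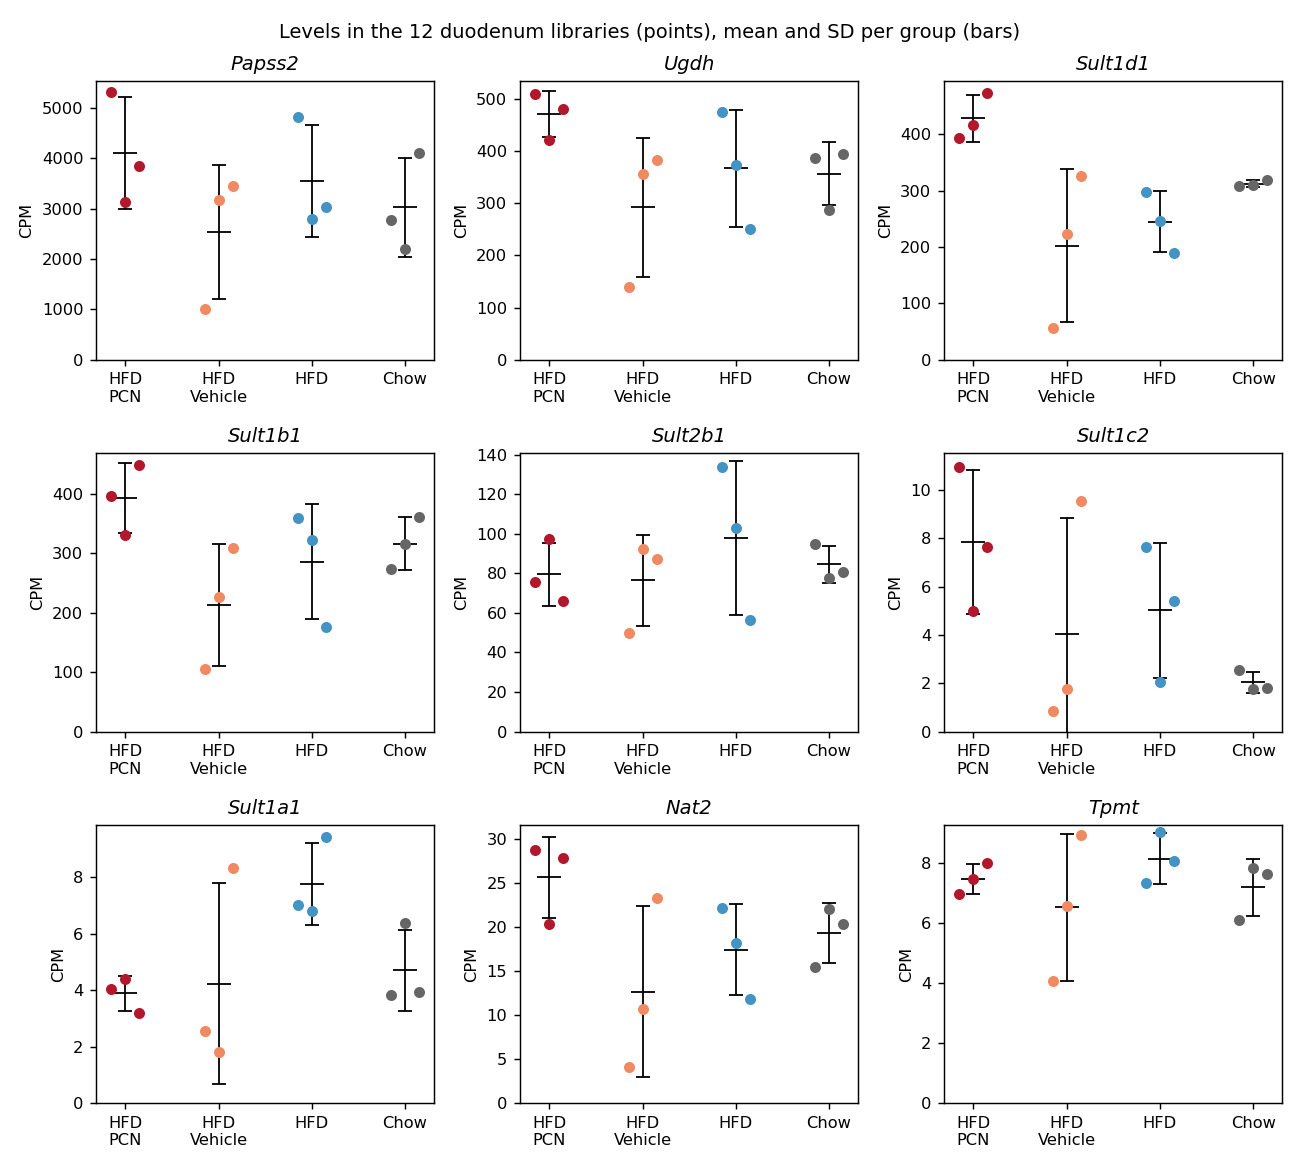
CPM of the 9 genes (y axis, linear from 0) in the 4 groups (x axis), with 1 point per library and bars for the mean and SD of 3 libraries (cut off at 0 for Sult1c2). The 3 HFD PCN points of Sult1d1, at 394 to 474 CPM, lie above all 9 other libraries, and HFD Vehicle 23 is the lowest of the 12 libraries for all of the genes except Sult1a1.

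Papss2 (ENSMUSG00000024899, GRCm38 chromosome 19, 32620005 to 32667187) had 3856, 5323 and 3133 CPM in HFD PCN 5, 11 and 27, against 1004, 3167 and 3447 CPM in HFD Vehicle 23, 50 and 55. HFD Vehicle 23 was the low library of the vehicle group, and the groups overlapped. The log2 fold change was 0.68 (SE 0.48, 95% interval -0.39 to 1.75, edgeR adjusted p = 0.434), and 0.30 without HFD Vehicle 23. In the diet comparison Papss2 had 3033, 4825 and 2806 CPM in HFD 4, 30 and 38, against 4112, 2784 and 2200 CPM in Chow 8, 17 and 19. Its spread within either group was as wide as the difference between them (log2 fold change 0.22, SE 0.33, edgeR adjusted p = 0.830). Papss1, the other PAPS synthase, lay far lower, at 5.30 ± 0.671 CPM per kilobase in HFD PCN and 5.67 ± 1.01 in Chow. Of all reads of both synthases, Papss2 took 98.1% to 99.8% across the 12 libraries.

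Ugdh (ENSMUSG00000029201, GRCm38 chromosome 5, 65413221 to 65435949) had 480, 509 and 422 CPM in HFD PCN 5, 11 and 27, against 139, 356 and 382 CPM in HFD Vehicle 23, 50 and 55. All 3 HFD PCN libraries lay above all 3 vehicle libraries, but the gap between 422 and 382 CPM was small beside the spread of the vehicle group. The log2 fold change was 0.68 (SE 0.36, interval -0.13 to 1.48, edgeR adjusted p = 0.329). Without HFD Vehicle 23 it was 0.34. In HFD 4, 30 and 38 Ugdh had 251, 475 and 374 CPM, against 395, 387 and 286 CPM in Chow 8, 17 and 19, and the means were nearly level (log2 fold change 0.03, interval -0.49 to 0.55, edgeR adjusted p = 0.974).

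Sult1d1, which sulfonates dopamine and other catecholamines in the mouse (ENSMUSG00000029273, GRCm38 chromosome 5, 87554645 to 87569027), had 474, 394 and 417 CPM in HFD PCN 5, 11 and 27, against 56.9, 224 and 326 CPM in HFD Vehicle 23, 50 and 55. On the diet alone, HFD 4, 30 and 38 had 189, 298 and 247 CPM, against 320, 309 and 310 CPM in Chow 8, 17 and 19. The HFD PCN libraries were thus above, and the HFD libraries below, all 3 libraries of the group each is set against. Sult1d1 was the only one of the 9 genes whose 3 HFD PCN libraries exceeded all 9 others, a pattern found in 1.79% of 16829 genes, and it is singled out here with those values known. The log2 fold change was 1.07 after PCN against vehicle (SE 0.51, interval -0.06 to 2.21, edgeR adjusted p = 0.295) and -0.36 on the diet against chow (SE 0.18, interval -0.77 to 0.04, edgeR adjusted p = 0.507). Against HFD, in a fit that shares the HFD PCN libraries, it was 0.81 (SE 0.21, interval 0.36 to 1.26) with an edgeR adjusted p of 0.121, where 0.325% of genes passed, 18.2% had an unadjusted p under 0.05 and 11.4% lay higher without overlap.

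Sult1b1, which sulfonates thyroid hormones and small phenols (ENSMUSG00000029269, GRCm38 chromosome 5, 87513339 to 87538195), lies near Sult1d1 on the same strand, with 16449 bases between them. It had 450, 397 and 332 CPM in HFD PCN 5, 11 and 27, against 105, 226 and 309 CPM in HFD Vehicle 23, 50 and 55. The groups did not overlap, although HFD PCN 27 and HFD Vehicle 55 were close. The log2 fold change was 0.87 (SE 0.36, interval 0.06 to 1.69), with an unadjusted p of 0.0380 and an edgeR adjusted p of 0.264. For Sult1b1, HFD 4, 30 and 38 had 176, 360 and 323 CPM, against 361, 274 and 315 CPM in Chow 8, 17 and 19. HFD 4 alone lay below the chow range, and the log2 fold change of -0.16 (SE 0.24) became 0.07 without it.

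RefSeq (GRCm38.p6) gave a promoter for 8 of the 9 genes, all but Nat2. The 250 bases before the start site are shown, 5′ to 3′ on the gene's strand, for Sult1d1, Sult1b1 and Ugdh, because these were the 3 genes whose HFD PCN and HFD Vehicle libraries did not overlap. Capitals mark matches to the nuclear receptor half-sites AGTTCA and AGGTCA and to the antioxidant response core TGACNNNGC (N is any base), searched on both strands.
Sult1d1, chr5:87569007-87569256, minus strand: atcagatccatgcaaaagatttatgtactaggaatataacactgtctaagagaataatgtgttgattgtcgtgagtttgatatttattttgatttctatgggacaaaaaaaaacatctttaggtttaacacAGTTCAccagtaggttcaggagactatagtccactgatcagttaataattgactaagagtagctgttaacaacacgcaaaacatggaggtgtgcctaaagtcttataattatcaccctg
Sult1b1, chr5:87538196-87538445, minus strand: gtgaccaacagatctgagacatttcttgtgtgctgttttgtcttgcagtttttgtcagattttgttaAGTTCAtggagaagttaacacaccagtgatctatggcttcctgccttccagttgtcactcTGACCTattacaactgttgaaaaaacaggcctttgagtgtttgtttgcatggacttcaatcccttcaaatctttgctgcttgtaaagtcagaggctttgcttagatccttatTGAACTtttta
Ugdh, chr5:65435843-65436092, minus strand: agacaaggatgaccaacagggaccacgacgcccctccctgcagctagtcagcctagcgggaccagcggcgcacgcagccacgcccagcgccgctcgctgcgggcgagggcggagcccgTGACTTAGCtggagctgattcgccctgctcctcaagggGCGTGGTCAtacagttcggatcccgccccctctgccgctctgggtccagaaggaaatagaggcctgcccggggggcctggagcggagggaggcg

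The Sult1d1 window held 1 match to AGTTCA, 119 bases before the start. The Sult1b1 window held 2, at 183 bases before the start on the gene's strand and at 11 bases on the opposite strand, and 1 match to AGGTCA at 123 bases on the opposite strand. Of 32817 promoters of the same length, 11.9% held AGTTCA and 14.0% AGGTCA. The Ugdh window held TGACNNNGC at 132 bases before the start on the gene's strand and at 94 bases on the opposite strand, and 10.2% of promoters held at least 1. Among the promoters searched but not shown, that of Papss2, whose groups overlapped, held AGGTCA at 197 bases before the start on the opposite strand. Those of Sult1a1, Sult1c2, Sult2b1 and Tpmt held no match to these patterns. The Ugdh window is rich in G and C (69.2%), whereas those of Sult1d1 (34.0%) and Sult1b1 (39.2%) lie below the median of 52.4%. None of the 3 windows held the paired PXR motifs, which were AGTTCA repeated after 3 bases (0% of promoters), AGTTCA repeated after 4 bases (0.00914%) and TGAACT followed by AGGTCA after 6 bases (0%). Exact patterns this rare would be absent from nearly any 3 windows, so nothing follows from their absence. Also absent from these letters were the GATA factor motif AGATAA (9.99% of promoters), the CDX2 motif TTTATNG (9.81%), the HNF1 motif of GTTAAT followed by ATTAAC after 1 base (0.00914%), the HNF4 motif CAAAGTCCA (0.384%) and the TATA box letters TATAAA (12.4%). Only exact matches were sought, so sites that differ by a letter were not counted. The HNF1 and HNF4 patterns are also too rare for their absence to mean anything. The half-sites overlap the paired motifs by construction. A match here is a run of letters and not a shown binding site.

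Sult2b1, which sulfonates cholesterol and other 3β-hydroxysteroids (ENSMUSG00000003271, GRCm38 chromosome 7, 45729983 to 45784669), had 65.9, 75.5 and 97.2 CPM in HFD PCN 5, 11 and 27, against 50.0, 92.4 and 87.0 CPM in HFD Vehicle 23, 50 and 55. The groups overlapped (log2 fold change 0.04, SE 0.27, interval -0.56 to 0.64, edgeR adjusted p = 0.943). In the diet comparison Sult2b1 had 56.3, 134 and 103 CPM in HFD 4, 30 and 38, against 80.6, 94.9 and 77.9 CPM in Chow 8, 17 and 19 (log2 fold change 0.20, SE 0.25, edgeR adjusted p = 0.792). The ratio of Sult2b1 reads to Sult1d1 reads needs no scaling between libraries. It was 0.139, 0.192 and 0.233 in HFD PCN 5, 11 and 27, against 0.880, 0.413 and 0.267 in HFD Vehicle 23, 50 and 55. On the diet the ratio was 0.297, 0.448 and 0.417 in HFD 4, 30 and 38, against 0.252, 0.308 and 0.251 in Chow 8, 17 and 19. The 3 HFD PCN ratios were the lowest of all 12 libraries, while the HFD ratios overlapped those of chow. Its denominator Sult1d1 was itself singled out above for high HFD PCN values. Sult2b1 reads per Sult1b1 read were 0.147 to 0.293 in HFD PCN and 0.281 to 0.476 in HFD Vehicle. They were 0.319 to 0.371 in HFD and 0.223 to 0.347 in Chow, so HFD PCN overlapped HFD Vehicle and Chow there. An exact two-sided permutation test of 3 libraries against 3 cannot give a p below 0.1. No test was therefore made on either ratio, and both were chosen with the values known.

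Sult1c2 and Sult1a1 gave few reads. Sult1c2 (ENSMUSG00000023122, GRCm38 chromosome 17, 53829637 to 53846339) had 7.64, 11.0 and 5.01 CPM in HFD PCN 5, 11 and 27, against 0.856, 1.76 and 9.54 CPM in HFD Vehicle 23, 50 and 55. HFD Vehicle 55 lay within the range of the PCN libraries, far from the other 2 vehicle libraries (log2 fold change 1.13, SE 0.77, interval -0.61 to 2.87, edgeR adjusted p = 0.425). In HFD 4, 30 and 38 it had 5.39, 7.62 and 2.06 CPM, against 1.79, 2.56 and 1.76 CPM in Chow 8, 17 and 19. HFD 38 lay among the chow libraries, and the log2 fold change of 1.30 (SE 0.46, interval 0.28 to 2.33) had an edgeR adjusted p of 0.412. When no filter on low counts was used, Sult1c2 passed in this comparison (edgeR adjusted p = 0.0247, log2 fold change 1.31), where 1.25% of genes passed; over its other alternatives the adjusted p was 0.0541 to 0.991. The lowest of these came without HFD 38, with a log2 fold change of 1.74, and without HFD 30 the fold change was 0.78 on that scale.

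Sult1a1, a phenol sulfotransferase (ENSMUSG00000030711, GRCm38 chromosome 7, 126672865 to 126676432), had 9.43, 7.04 and 6.80 CPM in HFD 4, 30 and 38, against 3.93, 3.84 and 6.37 CPM in Chow 8, 17 and 19. The HFD libraries lay above the chow libraries without overlap, as 8.14% of genes did. The log2 fold change was 0.66 (SE 0.29, interval 0.03 to 1.28), with an unadjusted p of 0.0425 and an edgeR adjusted p of 0.470. In HFD PCN 5, 11 and 27 it had 3.22, 4.05 and 4.42 CPM, against 2.57, 1.81 and 8.34 CPM in HFD Vehicle 23, 50 and 55. HFD Vehicle 55 was high and the other 2 vehicle libraries low, and the log2 fold change was -0.03 (SE 0.53, interval -1.23 to 1.16, edgeR adjusted p = 0.980). It was 0.83 without HFD Vehicle 55, and -1.14 without HFD Vehicle 23 and 50 together (unadjusted p = 0.0102, edgeR adjusted p = 0.997). Against HFD, all 3 HFD PCN libraries were lower (log2 fold change -0.98, SE 0.27, interval -1.56 to -0.40, edgeR adjusted p = 0.137), as 11.9% of genes were. The gene Sgf29 overlaps Sult1a1 on the opposite strand, and the strand setting of the counting is not given in the sources used here. Genes on the opposite strand also overlap Sult2b1 (Lmtk3 and Gm31597) and Tpmt (Kdm1b and Gm18807). Ugdh is overlapped on its own strand by Gm43289 and the protein-coding Gm43552, where no strand setting separates the reads.

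Nat2, the main arylamine acetyltransferase of the mouse (ENSMUSG00000051147, GRCm38 chromosome 8, 67494858 to 67502584), had 27.8, 28.8 and 20.3 CPM in HFD PCN 5, 11 and 27, against 4.14, 10.7 and 23.2 CPM in HFD Vehicle 23, 50 and 55. HFD Vehicle 55 lay within the PCN range, and the log2 fold change of 1.06 (SE 0.50, interval -0.08 to 2.20) had an edgeR adjusted p of 0.299. In HFD 4, 30 and 38 it had 11.9, 22.1 and 18.2 CPM, against 20.4, 15.5 and 22.0 CPM in Chow 8, 17 and 19 (log2 fold change -0.14, SE 0.23, edgeR adjusted p = 0.844). Tpmt, which methylates thiopurine drugs (ENSMUSG00000021376, GRCm38 chromosome 13, 47022482 to 47044737), had the smallest spread of the 9 genes over the 12 libraries. It had 7.99, 6.98 and 7.46 CPM in HFD PCN 5, 11 and 27, against 4.07, 6.56 and 8.94 CPM in HFD Vehicle 23, 50 and 55 (log2 fold change 0.22, SE 0.32, edgeR adjusted p = 0.716). In HFD 4, 30 and 38 it had 8.08, 7.33 and 9.03 CPM, against 7.62, 6.11 and 7.83 CPM in Chow 8, 17 and 19 (log2 fold change 0.16, SE 0.22, edgeR adjusted p = 0.813).

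**Figure D2:**
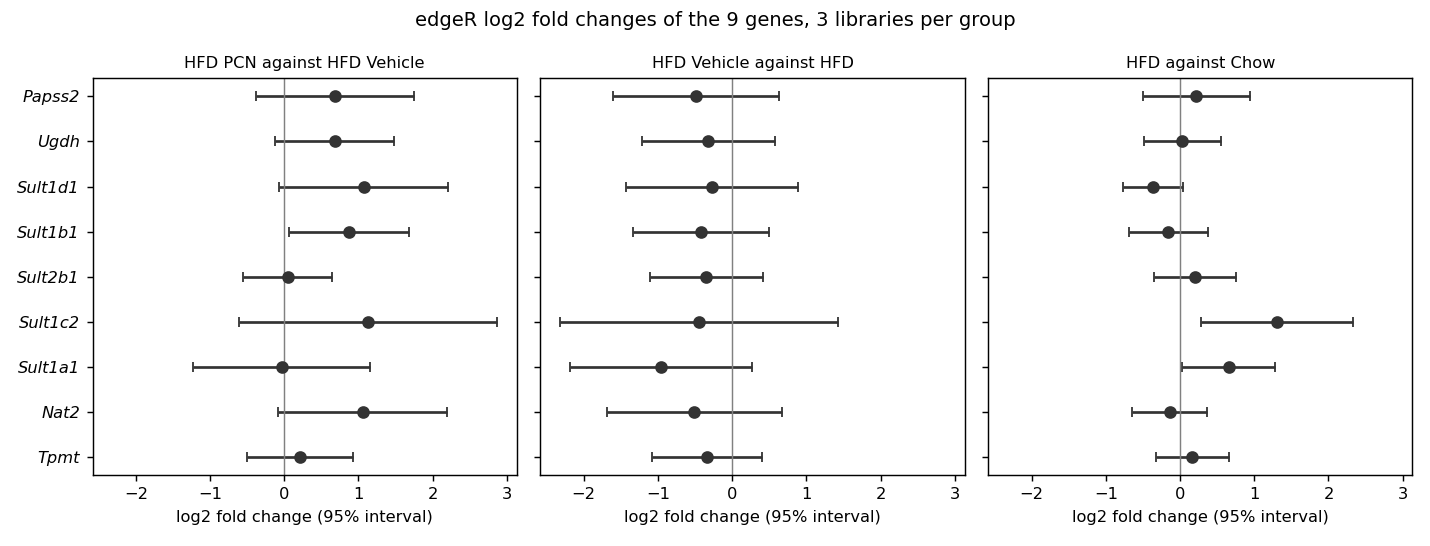
edgeR log2 fold changes (x axis) of the 9 genes (y axis) with 95% intervals, for HFD PCN against HFD Vehicle, HFD Vehicle against HFD and HFD against Chow, 3 libraries per group. The interval lies above 0 for Sult1b1 in the first panel and for Sult1c2 and Sult1a1 in the third, and no gene passed after adjustment over all genes.

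The order of the group means shows what the genes share. Papss2, Ugdh, Sult1d1, Sult1b1, Sult1c2 and Nat2 had their highest mean in HFD PCN, and every gene but Sult1a1 and Sult1c2 had their lowest in HFD Vehicle. Neighbouring groups in that order overlapped for 7 of the 9 genes. At least 1 pair of neighbours did not overlap for the other 2, beside 18.0% of 16829 genes, which is near that share. They were Sult1a1, whose HFD libraries lay above those of Chow, and Sult1d1, whose HFD PCN libraries lay above those of Chow and whose Chow libraries lay above those of HFD. Of the 9 genes, 8 had positive log2 fold changes in HFD PCN against HFD Vehicle, with a median of 0.68 beside -0.01 over all genes, and 49.0% of all genes were positive. The groups did not overlap for 3 of them (Sult1b1, Sult1d1 and Ugdh), all higher, beside 9.84% of all genes. In HFD against Chow 6 of 9 were positive with a median of 0.16 beside 0.00 over all genes, with 50.5% of all genes positive, and 1 gene each lay higher (Sult1a1) and lower (Sult1d1) without overlap, beside 8.14% and 8.16% of all genes.

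In HFD Vehicle against HFD, all 9 log2 fold changes were negative, with a median of -0.42 beside 0.01 over all genes, 50.7% of which were positive. The groups overlapped for each of the 9, where 9.92% of all genes did not overlap. Sult1a1 had the largest difference (log2 fold change -0.96, SE 0.54, edgeR adjusted p = 0.803). This comparison and the PCN comparison share the vehicle libraries, which enter them with opposite sign. Paneth cell markers were positive in 8 of 8 (median 2.20, 8 at an unadjusted p under 0.05) and heat shock genes in 4 of 4 (median 2.45, 4). DESeq2 called 3 and 2 of them, edgeR and limma-voom 0. Enterocyte markers were negative in 13 of 15 (median -0.22), T and NK cell markers in 10 of 10 (-0.68) and macrophage markers in 8 of 9 (-0.58). Pancreatic acinar markers were positive in 9 of 9 (1.72). The part of these cells in the 9 genes was not tested. Without HFD Vehicle 55, Sult1a1 passed here with a log2 fold change of -1.83 (edgeR adjusted p = 0.0420), where 1.54% of genes passed.

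The PCN differences moved in size with the vehicle libraries in the fit. Without HFD Vehicle 55, the shallowest library, Sult1c2 (log2 fold change 2.57, edgeR adjusted p = 0.00386), Nat2 (1.78, edgeR adjusted p = 0.0117) and Sult1b1 (1.25, edgeR adjusted p = 0.0244) passed, but so did 22.0% of all genes. The vehicle libraries left in that fit, HFD Vehicle 23 and 50, had heat shock sums of 5912 and 4929 CPM and Paneth cell sums of 2655 and 1200 CPM. HFD Vehicle 55 had 1103 and 571 CPM. Without HFD Vehicle 23 none passed and the median over the 9 genes was 0.34, and without HFD Vehicle 23 and 50 together it was 0.11, with Sult1c2 at -0.30 and Sult1d1 at 0.36. Against HFD the median was 0.37 and 6 of the 9 were positive. The markers of mature enterocytes moved with these genes: 15 of 15 had positive log2 fold changes in HFD PCN against HFD Vehicle, with a median of 0.66 close to that of the 9 genes, and 0 of 15 were called by edgeR, DESeq2 or limma-voom (3 at an unadjusted p under 0.05).

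Several other marker lists differed between the same libraries as much or more, and edgeR and limma-voom called none of their genes. Of 8 Paneth cell markers, all 8 were lower at an unadjusted p under 0.05, with a median log2 fold change of -2.36, and DESeq2 called 5. Their summed level was 273 to 593 CPM in HFD PCN and 571 to 2655 CPM in HFD Vehicle. All 6 heat shock genes tested were negative (median -2.42, 5 at an unadjusted p under 0.05), and DESeq2 called 4. T and NK cell markers were positive in 10 of 10 (median 1.18, 3 at an unadjusted p under 0.05, 0 called by DESeq2), with sums of 63.0 to 108 CPM in HFD PCN and 12.3 to 75.7 CPM in HFD Vehicle. Fibroblast markers were negative in 7 of 7 (median -0.94, 4 at an unadjusted p under 0.05, 2 called by DESeq2), with sums of 145 to 190 CPM in HFD PCN and 237 to 404 CPM in HFD Vehicle. Smooth muscle markers were negative in 7 of 7 (median -0.68, 5 at an unadjusted p under 0.05, 0 called by DESeq2), and pancreatic acinar markers in 9 of 9 (median -2.34, 4 at an unadjusted p under 0.05, 1 called by DESeq2). The remaining lists had medians smaller in size, and edgeR, DESeq2 and limma-voom called none of their genes. The medians were 0.11 for goblet cells (4 of 7 positive), -0.33 for macrophages (2 of 9) and 0.22 for Brunner glands (2 of 2). For hepatocytes the median was 0.21 (2 of 3 positive) and for ileal enterocytes 0.49 (2 of 2). The part of these cell types, and of the enterocytes, in the values of the 9 genes was not tested.

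**Figure D3:**
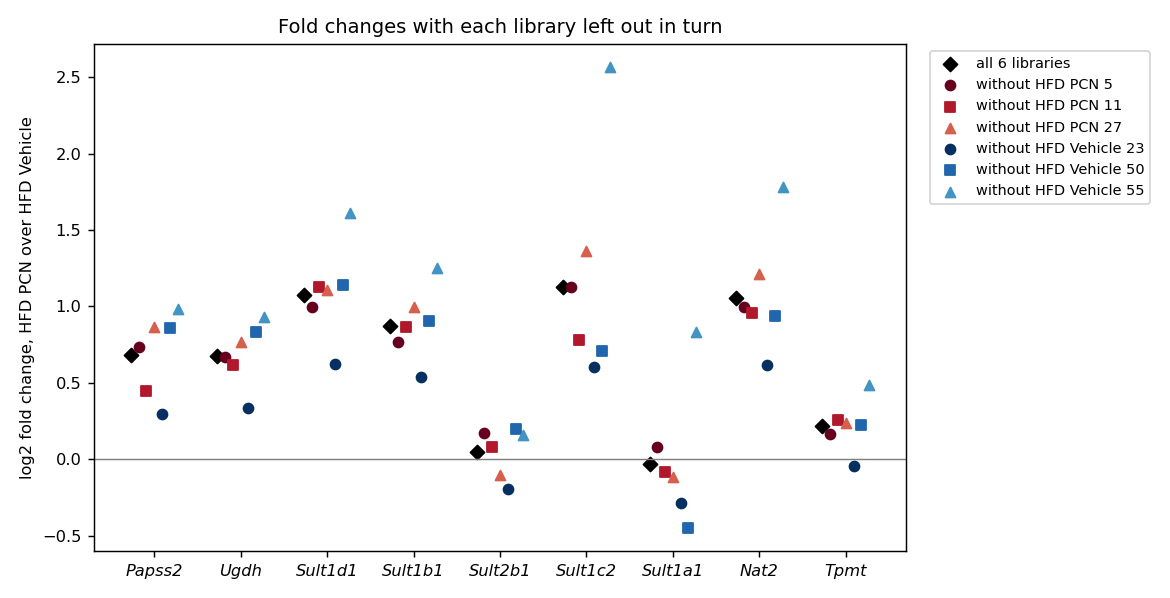
Log2 fold change of HFD PCN over HFD Vehicle (y axis) for the 9 genes (x axis), with all 6 libraries (black diamonds) and with each library left out in turn. Leaving out HFD Vehicle 55 gave the highest value for 8 of the genes, such as 2.57 for Sult1c2, and leaving out HFD Vehicle 23 gave the lowest for 8 of them, such as 0.30 for Papss2.

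Set against the summed enterocyte markers of the same library, the genes differed from one another. Sult1d1 stood at 8.25, 7.53 and 7.64 CPM per 1000 CPM of enterocyte markers in HFD PCN 5, 11 and 27, against 3.28, 5.67 and 6.08 in HFD Vehicle 23, 50 and 55. It was at 6.81, 5.87 and 4.31 in HFD 4, 30 and 38, against 7.02, 7.51 and 5.94 in Chow 8, 17 and 19. The HFD PCN values were above those of all other libraries, though Chow 17, at 7.51, came close to HFD PCN 11. Sult1b1 stood at 7.83, 7.59 and 6.0701 in HFD PCN 5, 11 and 27. HFD Vehicle 23, 50 and 55 had 6.0697, 5.72 and 5.77, so for Sult1b1 the groups nearly met. Chow 8, at 7.93, was above every HFD PCN library for Sult1b1. Papss2 stood at 67.1, 102 and 57.3 in HFD PCN 5, 11 and 27, against 58.0, 80.3 and 64.3 in HFD Vehicle 23, 50 and 55, and Ugdh at 8.36, 9.73 and 7.72, against 8.01, 9.01 and 7.13. For both cofactor enzymes these ratios overlapped, although their CPM in HFD Vehicle 23 was the lowest of the 12 libraries. For Tpmt the HFD PCN ratios, at 0.139, 0.133 and 0.137, lay below the vehicle ratios of 0.235, 0.166 and 0.167, so that its order was turned round by the choice of scale. The ratios depend on the 15 markers, which include the fat-handling genes Apoa4, Fabp1 and Mttp.

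**Figure D4:**
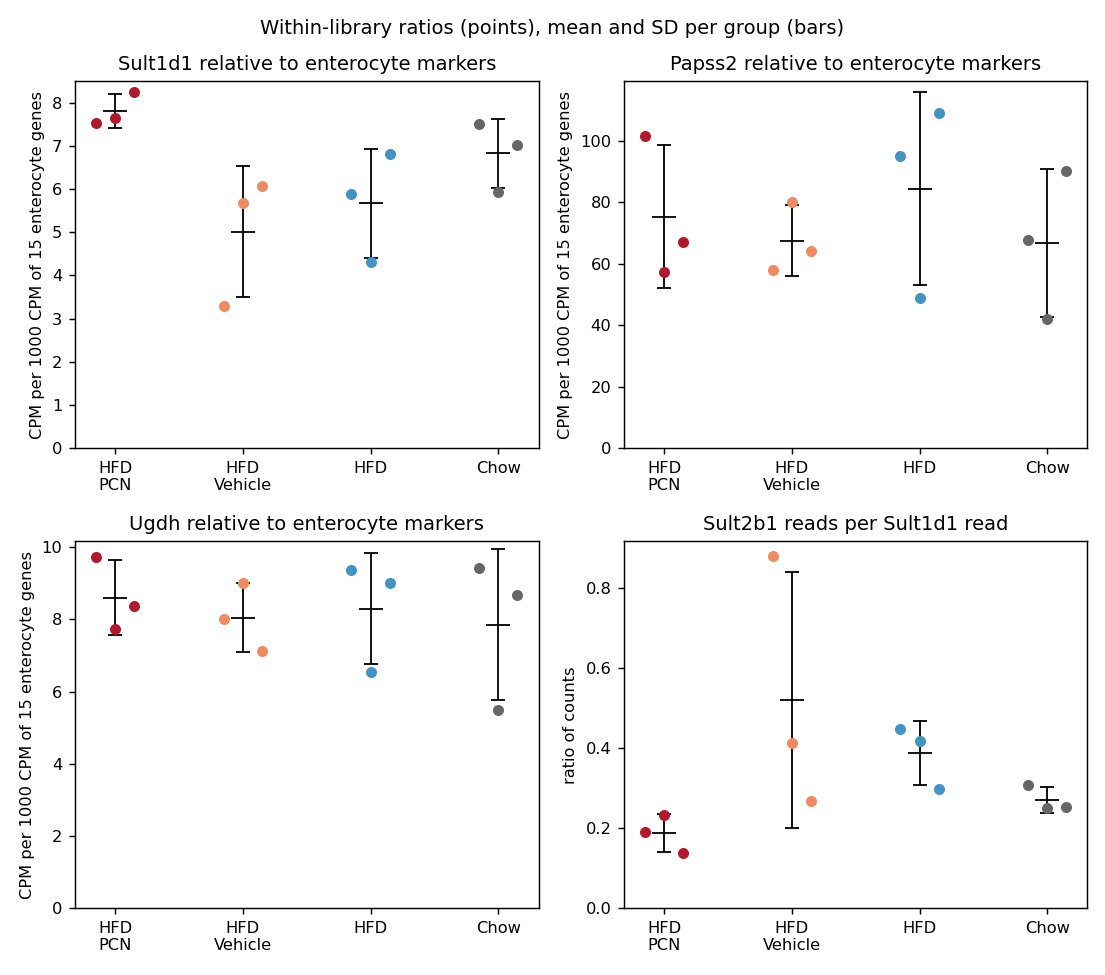
Within-library ratios (y axes, linear from 0) by group (x axes), with 1 point per library and bars for the mean and SD of 3 libraries: Sult1d1, Papss2 and Ugdh in CPM per 1000 CPM of 15 summed enterocyte markers, and Sult2b1 reads per Sult1d1 read. The HFD PCN points are the highest for Sult1d1 (7.53 to 8.25) and the lowest for the read ratio (0.139 to 0.233), and they overlap the other groups for Papss2 and Ugdh.

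Other genes of the same chemistry were followed in 7 lists: other cytosolic sulfotransferases, sulfate and PAPS supply, UDP-glucuronate supply, methylation and its cofactor, acetyl and amino acid conjugation, sulfotransferases of the Golgi, and sulfatases. edgeR called 0 of their tested members in HFD PCN against HFD Vehicle and 0 in HFD against Chow, and limma-voom called none. DESeq2 called 1, the arylsulfatase Arsa, in HFD against Chow. Of 16 other cytosolic sulfotransferases sought, 2 passed the filter in the PCN comparison and 1 in the diet comparison. At an unadjusted p under 0.05 the PCN comparison had 1 higher and 1 lower of these 2, 0 of 16 for sulfate and PAPS supply, 2 of 7 for UDP-glucuronate supply (both higher), 1 higher and 2 lower of 13 for methylation, 1 of 5 for acetyl and amino acid conjugation (lower), 5 of 23 for the Golgi enzymes (all lower) and 3 of 12 for sulfatases (all higher). The shares over all genes were 6.46% higher and 11.5% lower. The median log2 fold changes in the same order were -0.05, 0.09, 0.46, 0.27, -0.24, -0.23 and 0.33.

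Sult6b2, another cytosolic sulfotransferase, exceeded every sulfotransferase among the 9 genes in level, at 527 ± 170 CPM per kilobase in HFD PCN and 250 ± 121 in HFD Vehicle, and 339 ± 155 in HFD and 198 ± 96.6 in Chow. It had 1174, 1486 and 755 CPM in HFD PCN 5, 11 and 27, against 267, 562 and 788 CPM in HFD Vehicle 23, 50 and 55 (log2 fold change 1.07, SE 0.42, edgeR adjusted p = 0.254). HFD Vehicle 55 overlapped the PCN libraries. The sodium-sulfate cotransporter Slc13a1, which brings sulfate into epithelial cells, had 660, 780 and 492 CPM in HFD PCN 5, 11 and 27, against 144, 334 and 524 CPM in HFD Vehicle 23, 50 and 55 (log2 fold change 0.94, SE 0.42, edgeR adjusted p = 0.283). Slc35d1, the transporter that carries UDP-glucuronate into the endoplasmic reticulum, had 91.6, 95.0 and 76.6 CPM in HFD PCN 5, 11 and 27, against 39.4, 48.1 and 69.5 CPM in HFD Vehicle 23, 50 and 55 without overlap (log2 fold change 0.74, SE 0.25, edgeR adjusted p = 0.240). Slc35d1 was named for its small p within its list, and 9.84% of all genes lay higher without overlap. For its relative Slc35d2 the log2 fold change was 0.74 (SE 0.29, edgeR adjusted p = 0.252). For Impad1, a phosphatase of the spent sulfation cofactor beside Bpnt1, it was 0.64 (SE 0.31, edgeR adjusted p = 0.300). Papss1 stood at -0.28 (SE 0.21, edgeR adjusted p = 0.453).

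Among the remaining genes that the rule named after PCN, Chst15 and Tpst2, which sulfonate chondroitin and protein tyrosines, stood at log2 fold changes of -0.73 (SE 0.24) and -0.64 (SE 0.26). Mtr, the methionine synthase, had -0.72 (SE 0.26), and the lysosomal Arsb and Arsk had 0.79 (SE 0.28) and 0.68 (SE 0.26). Acly and Acss2, which make acetyl-CoA, had -0.24 (SE 0.20) each. Their edgeR adjusted p were 0.238 to 0.513, and these values passed no test.

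In HFD against Chow the same 7 lists had at an unadjusted p under 0.05 0 of 1, 1 of 16 (lower), 1 of 7 (higher), 0 of 10, 1 higher and 1 lower of 4, 2 of 22 (higher) and 2 of 12 (higher), where 5.75% of all genes were higher and 4.59% lower. Their median log2 fold changes were 0.76, -0.02, -0.01, 0.04, 0.03, 0.28 and 0.19. The lysosomal sulfatase Arsa, which acts on sulfated lipids, had 21.1, 30.1 and 24.7 CPM in HFD 4, 30 and 38, against 14.1, 13.1 and 11.7 CPM in Chow 8, 17 and 19. The groups did not overlap (log2 fold change 0.97, SE 0.19, edgeR adjusted p = 0.127), and 8.14% of all genes lay higher without overlap. Arsa, Gusb and Ndst2 were named for small p within their lists, which favours separate groups. Gusb, the lysosomal enzyme that removes glucuronate, had 18.0, 19.6 and 19.4 CPM in HFD 4, 30 and 38, against 12.7, 13.4 and 14.2 CPM in Chow 8, 17 and 19, also without overlap (log2 fold change 0.49, SE 0.17, edgeR adjusted p = 0.395). Ndst2, a heparan sulfate N-sulfotransferase, had 26.3, 27.9 and 21.9 CPM in HFD 4, 30 and 38, against 16.4, 17.2 and 16.7 CPM in Chow 8, 17 and 19 (log2 fold change 0.59, SE 0.17, edgeR adjusted p = 0.330). Macrophage markers were positive in 8 of 9 (median 0.76, 5 at an unadjusted p under 0.05), with sums of 124 to 174 CPM in HFD and 89.2 to 157 CPM in Chow. Of these 9 markers edgeR called 1 higher, DESeq2 2 and limma-voom 0. T and NK cell markers were negative in 10 of 10 (median -1.28, 9 at an unadjusted p under 0.05), with sums of 27.8 to 86.1 CPM in HFD and 109 to 197 CPM in Chow; DESeq2 called 5 of them, edgeR and limma-voom 0. Pancreatic acinar markers were negative in 9 of 9 (median -3.17, 8 at an unadjusted p under 0.05), with sums of 4.51 to 25.5 CPM in HFD and 48.6 to 131 CPM in Chow; DESeq2 called 2, edgeR and limma-voom 0. The part of these cells in the values of the 9 genes and of the lysosomal genes was not tested.

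The other genes named on the diet gave smaller differences or wider errors. Slc26a3 and Slc26a6, anion exchangers of the gut lining, stood at log2 fold changes of -0.56 (SE 0.24) and 0.39 (SE 0.26). Nat8 had 0.41 (SE 0.17), while Acsm3 had 1.58 to 2.97 CPM in HFD and 2.98 to 6.31 CPM in Chow, next to each other without overlap. Of all genes, 8.16% lay lower without overlap. On the log2 scale the differences were 0.56 (SE 0.22) for Chst15, 0.56 (SE 0.21) for Arsg, -0.29 (SE 0.17) for Adk, -0.31 (SE 0.21) for Ahcy and -0.33 (SE 0.22) for Uxs1. Sult6b2 had 0.76 (SE 0.42) and Papss1 -0.22 (SE 0.25), and the edgeR adjusted p of all these were 0.423 to 0.773.

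Likeness of pattern was measured as the root mean square difference of centred log2 CPM over the 12 libraries, among 10557 genes with a mean of at least 5 CPM. The nearest genes to Papss2 were Gk5 (0.18) and the brush border alkaline phosphatase Alpi (0.19), where the spread of Papss2 itself was 0.59 on that scale. Ugdh lay nearest to Cyb5r3 (0.12) and the brush border cadherin Cdhr2 (0.13), Sult1d1 to Lrrc19 (0.18) and Bche (0.20), and Sult1b1 to Pdzd11 (0.09) and Chmp1b (0.10). Nat2 lay nearest to Zfp995 (0.14) and Uqcrb (0.15), Sult2b1 to Abhd17c (0.12) and Got1 (0.12), and Tpmt to Cnot9 (0.11) and Mtmr1 (0.14). Sult1a1 was nearest to Fcgr3 (0.26) and Cxcl14 (0.31), and Sult1c2 to Rrm2 (0.58) and Nat8f2 (0.59), which left much of its spread of 1.12 unshared. Among the 9 genes themselves the closest pairs were Sult1b1 with Ugdh (0.21) and Sult1d1 with Nat2 (0.24), both nearer than Sult1b1 with Sult1d1 (0.31). These distances describe 12 libraries that share 1 scaling, and HFD Vehicle 23 is among them.

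The authors' deposited table gave for HFD PCN against HFD Vehicle log2 fold changes of 0.86 for Sult1d1, 0.81 for Nat2 and 0.76 for Sult1b1, with adjusted p of 0.334, 0.391 and 0.296. For HFD against Chow it gave 0.70 for Sult1c2, 0.48 for Sult1a1 and -0.33 for Sult1d1, with adjusted p of 0.548, 0.918 and 0.939. DESeq2 run here on the same counts gave 1.09, 1.05 and 0.89 for Sult1d1, Nat2 and Sult1b1 after PCN. On the diet it gave 1.30, 0.65 and -0.37 for Sult1c2, Sult1a1 and Sult1d1. The deposited values were smaller in size, and the reason was not tested. None of the 9 genes passed 0.05 in the authors' deposited table for either comparison, where 0.752% and 0.378% of its genes did.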

How the data were processed

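RNA was measured in 12 libraries of duodenum. Whole-number counts per gene stand unnormalised in 2 deposited tables, 6 libraries in each, together with the authors' own log2 fold changes and p-values. The submitters' processing notes name HISAT2, HTSeq, DESeq2 and the build GRCm38 (mm10). Annotation release and strand setting are not given in the sources used here. Replicate libraries differed beyond sampling noise (chi-square per degree of freedom 27.4 to 188). Each comparison was fitted on the whole table with edgeR 4.0.16 in R 4.3.3 (filterByExpr, TMM, robust quasi-likelihood F-test, Benjamini-Hochberg adjustment over all genes, threshold 0.05). The fit was also run on simulated counts. These had the same spread in every library and larger planted changes than the 9 genes showed, so that run cannot show how the fit performs on these libraries. HFD Vehicle against HFD, and HFD PCN against HFD, joined counts of both tables on shared genes. Standard errors are approximate, being the size of the log2 fold change over the root of F. CPM were scaled over all 12 libraries, fold changes within each comparison. DESeq2 1.42.0 and limma-voom (limma 3.58.1) were among the alternatives. From each list, called genes were named, or else the 2 with the smallest p in HFD PCN against HFD Vehicle and in HFD against Chow at a mean of at least 20 counts, plus Papss1 always. One gene that this rule names is not reported here. Ratios, patterns over all 12 libraries and macrophage sums were added with the values known. The 9 genes, the lists and the tests were chosen with earlier results of these data known. Coordinates count from 1. Counting intervals are not given; totals of 4676718 to 20684369 limit precision for genes with few reads.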

Additional observations from a re-analysis of the deposited data

How the results depend on the processing

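Over all alternatives run, the log2 fold changes of Sult1b1, Sult1d1, Papss2, Ugdh and Nat2 stayed positive in HFD PCN against HFD Vehicle. Those of Sult1a1, Sult1c2 and Tpmt stayed positive and that of Sult1d1 negative in HFD against Chow, and those of Sult2b1 and Papss2 stayed negative in HFD Vehicle against HFD. None of the values of opposite sign passed the test, nor had the values reported for those genes. Sult1c2 in HFD PCN against HFD Vehicle and Sult1a1 in HFD Vehicle against HFD passed without HFD Vehicle 55 and turned sign without HFD Vehicle 23 and 50 together. The cause was not tested in any case. No paired analysis was possible because each library number occurs once, so that the groups share no replicate numbers. The depth of 4676718 counts in HFD Vehicle 55 and the low counts of Sult1a1, Sult1c2 and Tpmt limit the precision for these genes.

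In HFD PCN against HFD Vehicle the 10 genes called became 339 with DESeq2, 843 with no filter on low counts, 34 with all 12 libraries in one fit, 2 without HFD Vehicle 23 and 50 together and 52 against HFD in place of HFD Vehicle. Leaving out 1 library at a time gave 0 to 3697 genes called and 0 to 3 of the 9, the upper values without HFD Vehicle 55. Over these fits Sult1a1 went from -0.45 to 0.83, Sult2b1 from -0.19 to 0.20 and Tpmt from -0.046 to 0.49. limma-voom gave 0.42 for Sult1a1. Without HFD Vehicle 23 and 50 together, where the lone vehicle library is assumed to vary as the PCN libraries do, the values were -0.30 for Sult1c2, -0.16 for Sult2b1 and -0.29 for Tpmt. Against HFD they were -0.30 for Sult2b1 and -0.12 for Tpmt.

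In HFD Vehicle against HFD the 0 genes called became 32 with DESeq2, 1 with no filter, 1 with all 12 libraries in one fit and 6 without HFD Vehicle 23 and 50 together. Leaving out 1 library at a time gave 0 to 260 genes called and 0 to 1 of the 9, the upper values without HFD Vehicle 55. Sult1c2 went from -1.92 to 0.075, Sult1d1 from -0.82 to 0.18 and Ugdh from -0.58 to 0.021. Without HFD Vehicle 23 and 50 together, the values were 0.15 for Sult1a1, 0.14 for Sult1b1, 0.96 for Sult1c2, 0.44 for Sult1d1, 0.090 for Ugdh, 0.43 for Nat2 and 0.16 for Tpmt.

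In HFD against Chow the 10 genes called became 134 with DESeq2, 351 with no filter on low counts and 2 with all 12 libraries in one fit. With no filter 1 of the 9 passed, which was Sult1c2. Leaving out 1 library at a time gave 4 to 63 genes called, the upper value without HFD 38, and 0 of the 9. Sult1b1 went from -0.34 to 0.069, Sult2b1 from -0.071 to 0.45, Papss2 from -0.043 to 0.50, Ugdh from -0.18 to 0.21 and Nat2 from -0.33 to 0.016. The turned directions came without HFD 4 for Sult1b1 and Nat2, and without HFD 30 for Sult2b1 and Papss2; for Ugdh they came without HFD 30 or Chow 19. limma-voom gave -0.061 for Ugdh.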
